A study of Mus musculus with 12 samples.

Results

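The nuclear genes of oxidative phosphorylation were measured in the mouse hippocampus after pilocarpine-induced seizures. Members were taken by gene symbol from the platform annotation, namely probe sets with 1 gene whose symbol began with Nduf, Sdh followed by a to d, Uqcr, Cox4 to Cox8, or Atp5. Where a gene had several such probe sets, the one with the highest mean level was kept, which gave 93 genes out of 23410 probe sets with a gene. The 93 comprised 73 structural subunits, of which 34 belong to complex I, 4 to complex II, 8 to complex III, 10 to complex IV and 17 to complex V, the ATP synthase. The symbols also took in 7 assembly factors of complex I and 4 of complex II, proteins that help to build a complex without being part of it, and 9 tissue isoforms or homologues of complex IV subunits, and these were kept apart. Cox7c and Ndufb4 were among 4 symbols present only on probe sets that name several genes, and they were not used here. The 13 subunits encoded by mitochondrial DNA were not measured under their symbols.

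Hippocampal RNA came from 12 mice, with 3 mice and 3 arrays in each of 4 groups. Their age is recorded as 7 to 10 weeks. In the study's methods tamoxifen was not given before 7 weeks of age, so the mice were older than that at sampling. The groups were Srf mutant mice (Srf loxp/loxp; CaMKCreERT2) given pilocarpine, Srf mutant controls given Ringer solution, heterozygous mice (Srf loxp/+; CaMKCreERT2) taken after 40 min of status epilepticus (SE), and heterozygous controls given Ringer solution. Every mouse carried the tamoxifen-inducible Cre driven by the Camk2a promoter, which acts in glutamatergic neurons of the forebrain, and received tamoxifen about 2 weeks earlier, so that other hippocampal cells kept Srf and the heterozygous controls had also lost 1 Srf allele in those neurons. Pilocarpine, a muscarinic agonist that induces seizures, was given at 335 or 350 mg/kg, and the labels do not say which mouse received which dose. According to the study's methods the mutants with pilocarpine on these arrays had seizures without reaching SE, whereas the labels call both pilocarpine groups mice with seizure and the heterozygous mice control or WT. When the pilocarpine-treated mutants were killed is not given in the sources used here.

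Oxidative phosphorylation takes place in the inner mitochondrial membrane. Complexes I and II pass electrons from NADH and succinate to ubiquinone, complexes III and IV hand them on to oxygen, and the proton gradient built on the way drives ATP synthesis by complex V. Neurons depend on it for the ion pumping that follows firing. Most subunits are encoded in the nucleus. Assembly factors are needed while a complex is built, for example to insert flavin or iron-sulphur clusters.

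Promoters of nuclear respiratory genes are known for sites of NRF1, of ETS-family factors such as GABP, and of YY1. Of the 93 members, all were matched in RefSeq by Entrez identifier and 77 had a promoter window in the RefSeq table (GRCm38.p6), which runs from 250 bases before to 50 bases after an annotated start. Where a gene had several starts listed, only the most upstream was used. The NRF1 consensus, of which GCGCATGCGC is a match, was searched on both strands and was present in 19 of 77 windows (24.7%), against 6.66% of the 17491 windows of all protein-coding genes. The ETS letters CCGGAAG were in 20 of 77 windows (26.0% against 11.9%), the YY1 letters AAGATGGCG in 6 (7.79% against 1.92%) and the CREB letters TGACGTCA in 4 (5.19% against 2.33%), each on both strands. No member window held a CArG box, the motif that SRF binds, against 1.56% of all windows. Such a match is a run of letters and not a measured binding site. The 150 bases before the start are shown for 4 members whose levels differed between groups, with matches to the searched motifs in capitals. Ndufab1, Sdhaf1 and Sdhaf2 also differed between groups and are not shown. Like Ndufaf3, which is shown, they held no match in these bases. Ndufaf4 lies on the plus strand at chr4:24897933-24898082 with an NRF1 match, Ndufa11 on the plus strand at chr17:56717612-56717761 with an NRF1 match, Sdhaf3 on the plus strand at chr6:6955868-6956017 with an ETS match, and Ndufaf3 on the minus strand at chr9:108567437-108567586 without a match.
Ndufaf4: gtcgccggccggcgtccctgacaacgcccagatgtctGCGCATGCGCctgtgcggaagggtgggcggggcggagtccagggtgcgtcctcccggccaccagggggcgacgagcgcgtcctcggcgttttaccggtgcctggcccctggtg
Ndufa11: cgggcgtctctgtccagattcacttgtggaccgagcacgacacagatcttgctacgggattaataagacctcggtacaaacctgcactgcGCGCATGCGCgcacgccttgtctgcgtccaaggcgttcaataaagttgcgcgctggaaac
Sdhaf3: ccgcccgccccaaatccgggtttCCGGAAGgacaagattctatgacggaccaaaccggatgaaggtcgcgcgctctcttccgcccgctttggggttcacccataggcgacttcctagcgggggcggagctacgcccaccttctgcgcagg
Ndufaf3: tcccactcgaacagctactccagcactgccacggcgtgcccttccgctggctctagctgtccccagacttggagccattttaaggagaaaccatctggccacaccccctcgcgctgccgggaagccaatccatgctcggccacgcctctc
The NRF1 match began at position -113 from the start of Ndufaf4 and at position -60 from that of Ndufa11, and both matches read GCGCATGCGC. In Sdhaf3 the ETS match began at position -127, and an NRF1 match that crosses the start is outside the stretch shown. Also outside the 150 bases were a match to the CREB letters at position -158 of Ndufa11 and ETS matches of Sdhaf1 and Sdhaf2. The start of Ndufa11 lay 63 bases from that of Vmac on the opposite strand, and the start of Sdhaf2 lay 35 bases from that of Cpsf7 on the opposite strand. Neither neighbour was called in mutants or in heterozygous mice.

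The deposited values were robust multiarray averages on the log2 scale, so that a difference of levels is a log2 fold change. Array medians over the probe sets with a gene lay between 7.66 and 7.72, and the number of arrays limits the precision. Srf had levels of 8.80 to 8.96 on the 6 mutant arrays, against 9.53 to 9.60 in heterozygous controls, and Fos reached 9.58 to 9.95 in pilocarpine-treated mutants and 11.98 to 12.06 in SE. A change was called at a Benjamini-Hochberg adjusted p under 0.05 over 23410 probe sets, from limma. By this rule, 204 probe sets were higher and 226 lower in pilocarpine-treated mutants (233 and 164 after arrays were centred on their medians), and 1190 were higher and 1623 lower in SE (1422 and 1115 after centring). Xist was above 9 in 1 of 3 pilocarpine-treated mutants, 2 of 3 mutant controls, 0 of 3 mice with SE and 1 of 3 heterozygous controls, so that sex was not balanced. Nothing says that same-numbered animals belong together, and in whole tissue fewer cells of a type and less RNA per cell cannot be told apart.

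The mean level of the 73 structural subunits differed little between groups, and both pilocarpine groups lay slightly below their controls. It was 11.25, 11.22 and 11.23 in pilocarpine-treated mutants, against 11.26, 11.27 and 11.36 in mutant controls. In heterozygous mice with SE it was 11.24, 11.25 and 11.27, against 11.31, 11.34 and 11.33 in heterozygous controls. The groups of either genotype did not overlap, but in the mutants the gap was narrow and mutant control replicate 3 was the highest of the 12 arrays. The difference of the means was -0.06 in mutants and -0.08 in heterozygous mice. Without mutant control replicate 3, the median log2 fold change of all 93 members in mutants was -0.03 in place of -0.06.

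**Figure D1:**
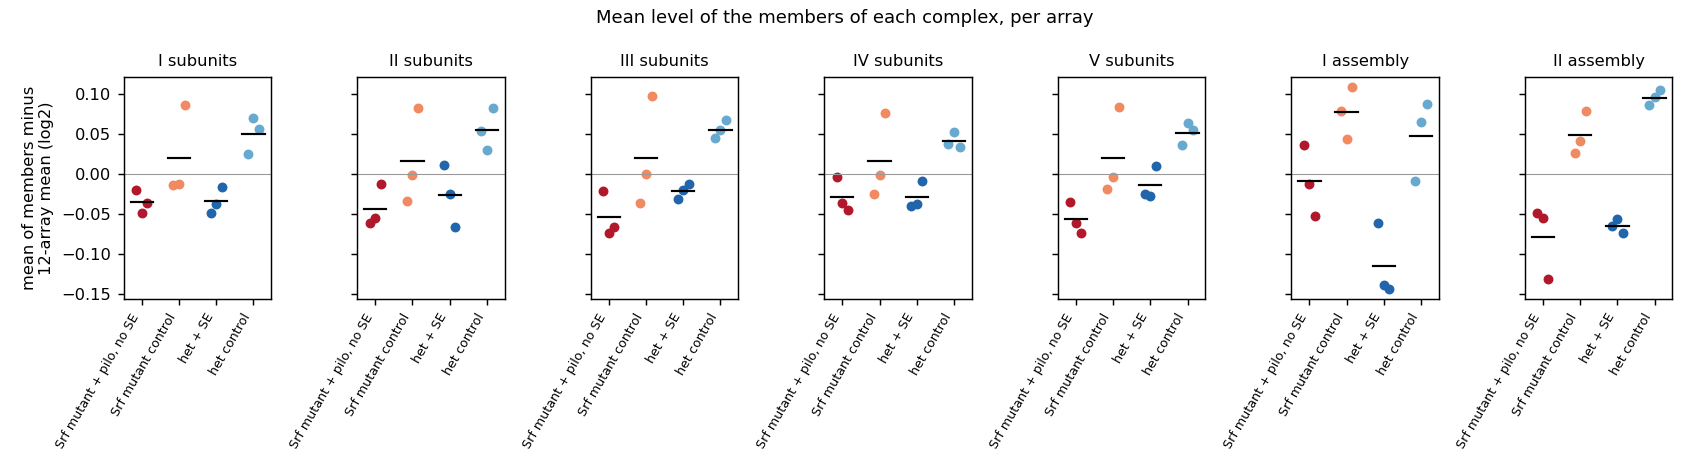
Mean log2 level of the members of each complex on each of 12 arrays, given as the deviation from the mean of the 12 arrays (y axis, log2), by group (x axis), with points for arrays and bars for means of 3 arrays. The means of the pilocarpine-treated mutants and of the mice with SE lie below those of their controls in every panel, and mutant control replicate 3 stands above the other 2 mutant controls.

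The 11 assembly factors had a mean level of 8.73, 8.70 and 8.65 in pilocarpine-treated mutants, against 8.79, 8.77 and 8.83 in mutant controls. In mice with SE it was 8.67, 8.62 and 8.61, against 8.75, 8.80 and 8.82 in heterozygous controls. Neither pair of groups overlapped. The difference of the means was -0.10 in mutants and -0.16 in heterozygous mice.

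Single genes were called seldom, and only as lower. In pilocarpine-treated mutants 3 of 93 members were lower (3.23%, against 0.965% of all probe sets) and 0 were higher (0.871% of all probe sets), and at an unadjusted p under 0.05 19 members were lower (20.4%, against 9.16% of all probe sets) and 0 higher (5.66% of all probe sets). In SE 5 of 93 were lower (5.38%, against 6.93% of all probe sets) and 0 were higher (5.08% of all probe sets), and at an unadjusted p under 0.05 33 were lower (35.5%, against 15.1% of all probe sets) and 0 higher (8.71% of all probe sets). With arrays centred on their medians, 1 of 93 was lower in SE (1.08%, against 4.76% of all probe sets), and the SE calls of Ndufab1, Ndufaf3, Sdhaf2 and Sdhaf3 ended (adjusted p = 0.0639 to 0.122 from limma). The median log2 fold change of the members was -0.06 in mutants, against -0.0036 over all probe sets, and -0.09 in SE, against -0.03 over all probe sets. Fold changes were below 0 for 77 of 93 members in mutants (82.8%, against 51.8% of all probe sets) and for 83 in SE (89.2%, against 61.2% of all probe sets). Groups did not overlap for 22 members that were lower in mutants (23.7%, against 11.4% of all probe sets) and for 0 that were higher (7.04% of all probe sets). In SE they did not overlap for 44 members that were lower (47.3%, against 19.8% of all probe sets) and for 0 that were higher (10.6% of all probe sets).

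Of the 73 structural subunits, 1 was called lower in pilocarpine-treated mutants (Ndufa11), or 1.37%, and 1 in SE (Ndufab1), or 1.37%. Of the 11 assembly factors, 2 were lower in mutants (Ndufaf3 and Sdhaf1), or 18.2%, and 4 were lower in SE (Ndufaf4, Sdhaf3, Ndufaf3 and Sdhaf2), or 36.4%. Over all probe sets 0.965% were lower in mutants and 6.93% in SE. The difference between subunits and assembly factors was not tested. The median log2 fold change was -0.10 in mutants and -0.15 in SE for the assembly factors, and -0.06 in mutants and -0.09 in SE for the subunits.

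**Figure D2:**
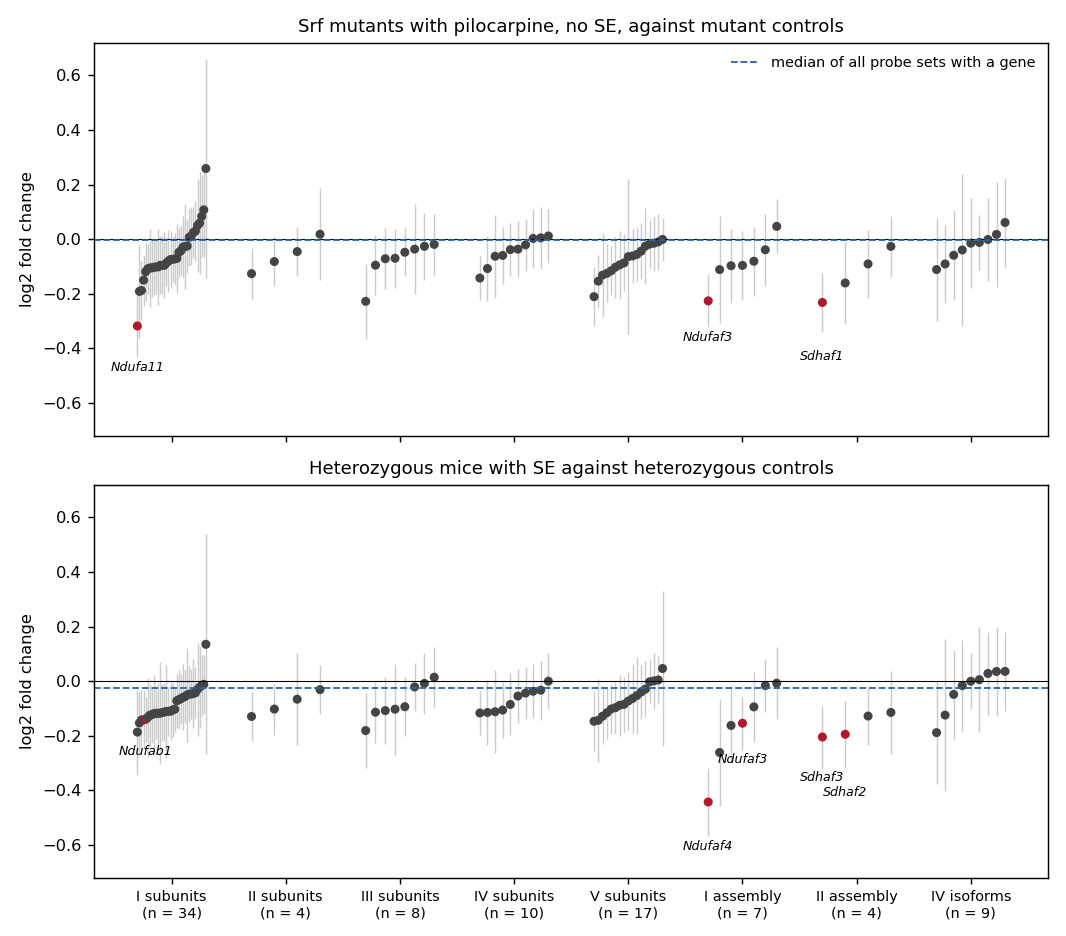
Log2 fold change (y axis) of each of the 93 members by class (x axis), in pilocarpine-treated mutants against mutant controls above and in heterozygous mice with SE against heterozygous controls below, with 95% confidence intervals as grey lines, called members in red and the median of all probe sets with a gene as a dashed line. Most points lie between 0 and -0.2, Ndufaf4 reaches -0.44 in SE and Ndufa11 reaches -0.32 in the mutants.

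Ndufaf4, a membrane-associated complex I assembly factor that works together with Ndufaf3, showed the largest change of all members in SE. Its level was 8.41, 8.38 and 8.35 in pilocarpine-treated mutants, against 8.47, 8.47 and 8.45 in mutant controls. In heterozygous mice with SE it was 8.10, 7.99 and 7.94, against 8.33, 8.54 and 8.49 in heterozygous controls. The 3 mice with SE were the lowest of the 12, and neither pair of groups overlapped. Ndufaf4 fell by 0.44 on the log2 scale in SE (standard error 0.058, 1.36-fold lower, adjusted p = 0.000272 from limma). In mutants its log2 fold change was -0.08 (95% confidence interval -0.21 to 0.045, adjusted p = 0.573 from limma). The response of the mutants minus that of the heterozygous mice was 0.36 (standard error 0.082, adjusted p = 0.0308 from limma), and Ndufaf4 was the only member called for this difference, 1 of 93 (1.08%, against 1.47% of all probe sets). The call in SE was kept in all 23 alternatives judged at an adjusted p under 0.05, with a highest adjusted p of 0.00552 from limma. It was not kept at the study's limits, which require a 2-fold change. The call for the difference ended without any 1 of the 3 mutant controls, mutant replicates 1 and 2 with pilocarpine, SE replicates 2 and 3 or heterozygous controls 2 and 3, with adjusted p of 0.0526 to 0.0853 from limma. It also ended in 2 of 10 other settings of the fit, with a highest adjusted p of 0.0615 from limma.

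Ndufaf3, its partner in complex I assembly, was the 1 member called in both pilocarpine comparisons. It had levels of 10.93, 10.86 and 10.82 in pilocarpine-treated mutants, against 11.06, 11.09 and 11.14 in mutant controls. In SE it had levels of 10.97, 10.99 and 10.90, against 11.12, 11.10 and 11.10 in heterozygous controls. All 6 mice with pilocarpine lay below all 6 controls. Ndufaf3 fell by 0.23 on the log2 scale in mutants (standard error 0.045, adjusted p = 0.0253 from limma). It fell by 0.15 in SE (standard error 0.045, adjusted p = 0.0415 from limma). The call in mutants ended without pilocarpine-treated mutant 2 or 3 or mutant control 2 or 3 (adjusted p = 0.0627 to 0.0923 from limma). In 3 of 11 other settings of the fit it ended too, among them only the compared groups (adjusted p = 0.117 from limma). The call in SE ended without any 1 SE array, any 1 heterozygous control, pilocarpine-treated mutant 2 or mutant control 2 (adjusted p = 0.0517 to 0.161 from limma). It also ended in 5 of 11 other settings of the fit, among them Xist as a covariate (adjusted p = 0.0629 from limma).

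Other complex I assembly factors were not called. Ndufaf1, part of the complex that assembles the membrane arm, had levels of 9.29, 8.98 and 9.11 in SE, against 9.23, 9.46 and 9.47 in heterozygous controls. These groups overlapped, and its log2 fold change was -0.26 (95% confidence interval -0.46 to -0.065, adjusted p = 0.0876 from limma). Ndufaf7, a methyltransferase that modifies a core subunit, had -0.16 in SE with groups that did not overlap (adjusted p = 0.128 from limma). Ndufaf2, a chaperone of late assembly, had -0.04 in mutants and -0.01 in SE, with 95% confidence intervals of -0.17 to 0.094 and -0.14 to 0.13. For Ndufaf5, which hydroxylates a core subunit, the values were 0.05 in mutants and -0.02 in SE. Ndufaf6 had -0.10 in mutants and -0.09 in SE.

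The assembly factors of complex II, succinate dehydrogenase, were each called at most once. Sdhaf3, which helps to mature the iron-sulphur subunit Sdhb, had levels of 8.97, 9.01 and 8.97 in pilocarpine-treated mutants, against 9.05, 8.94 and 9.03 in mutant controls. Its levels in SE were 8.92, 9.05 and 8.92, against 9.09, 9.17 and 9.23 in heterozygous controls. The SE group lay below its controls by a narrow gap, whereas the mutant groups overlapped. Sdhaf3 fell by 0.20 on the log2 scale in SE (standard error 0.052, adjusted p = 0.022 from limma), and its log2 fold change in mutants was -0.03 (95% confidence interval -0.14 to 0.087). The call ended without SE replicate 1 or 3 or heterozygous control 2 or 3 (adjusted p = 0.0672 to 0.0987 from limma). It also ended in 2 of 11 other settings of the fit, with a highest adjusted p of 0.0639 from limma.

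Sdhaf2, required to attach flavin to the catalytic subunit Sdha, had levels of 9.66, 9.65 and 9.55 in pilocarpine-treated mutants, against 9.65, 9.67 and 9.82 in mutant controls. In SE they were 9.48, 9.35 and 9.46, against 9.60, 9.66 and 9.61 in heterozygous controls. The 3 mice with SE were the lowest of the 12. Sdhaf2 fell by 0.19 on the log2 scale in SE (standard error 0.057, adjusted p = 0.0433 from limma), and its log2 fold change in mutants was -0.09 (95% confidence interval -0.21 to 0.033). The call ended on leaving out any 1 SE array, any 1 heterozygous control, pilocarpine-treated mutant 1 or 2 or mutant control 2 (adjusted p = 0.0504 to 0.15 from limma). It also ended in 4 of 11 other settings of the fit, among them Xist as a covariate (adjusted p = 0.0657 from limma).

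Sdhaf1, also a factor for the iron-sulphur clusters of Sdhb, had levels of 8.87, 8.74 and 8.87 in pilocarpine-treated mutants, against 9.06, 9.11 and 9.003 in mutant controls. Its levels were 8.94, 8.89 and 8.89 in SE, against 9.03, 9.07 and 8.99 in heterozygous controls. Neither pair of groups overlapped. Sdhaf1 fell by 0.23 on the log2 scale in mutants (standard error 0.049, adjusted p = 0.0352 from limma), and its log2 fold change in SE was -0.13 (adjusted p = 0.125 from limma). The call ended without pilocarpine-treated mutant 1 or 2, mutant control 1 or 2, SE replicate 3 or any 1 heterozygous control (adjusted p = 0.0501 to 0.124 from limma). It also ended in 6 of 11 other settings of the fit. These included arrays centred on their medians (adjusted p = 0.0561 from limma), Xist as a covariate (adjusted p = 0.0619 from limma) and only the compared groups (adjusted p = 0.143 from limma). Sdhaf4, which binds flavinylated Sdha, had -0.16 in mutants and -0.11 in SE, and was not called in either.

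**Figure D3:**
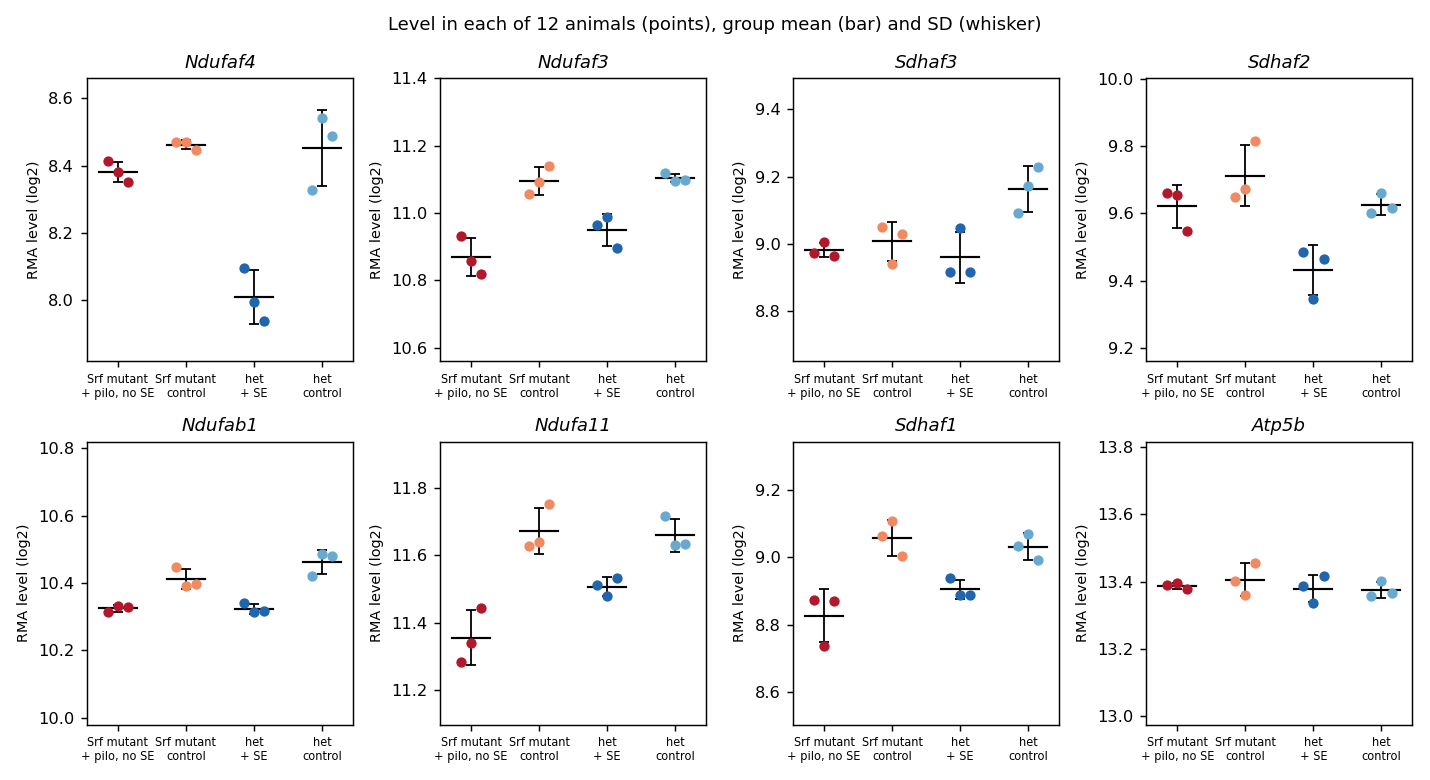
Level (y axis, RMA log2, the same span in every panel) in each of 12 mice by group (x axis) for the 7 called members and for Atp5b, with points for animals, bars for means and whiskers for SD (n = 3 each). For Ndufaf4 and Sdhaf2 the 3 mice with SE are the lowest, for Ndufa11 and Sdhaf1 the 3 pilocarpine-treated mutants are the lowest, and the Atp5b groups overlap.

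Of the 34 complex I subunits 33 were not called in mutants and 33 in SE. Over all probe sets 0.871% were called higher and 0.965% lower in mutants, and 5.08% higher and 6.93% lower in SE. With so few genes per complex, counts of 0 or 1 call, here and below, are not read as a result. Ndufa11, a subunit of the membrane arm, had levels of 11.28, 11.34 and 11.44 in pilocarpine-treated mutants, against 11.63, 11.64 and 11.75 in mutant controls. In SE its levels were 11.51, 11.48 and 11.53, against 11.72, 11.63 and 11.63 in heterozygous controls. The pilocarpine-treated mutants were the lowest 3 of the 12 mice, and neither pair of groups overlapped. Ndufa11 fell by 0.32 on the log2 scale in mutants (standard error 0.053, 1.25-fold lower, adjusted p = 0.0097 from limma). Its log2 fold change in SE was -0.15 (standard error 0.053, adjusted p = 0.0858 from limma), and the difference between both responses was not called (-0.17, 95% confidence interval -0.33 to -0.0038, adjusted p = 0.302 from limma). The other probe set of Ndufa11, listed for the same transcripts, had -0.15 in mutants (standard error 0.065, adjusted p = 0.295 from limma) and -0.19 in SE. The call in mutants ended with the mean of both probe sets (adjusted p = 0.058 from limma) and without pilocarpine-treated mutant 1 (adjusted p = 0.0518 from limma). It also ended with only the compared groups fitted (adjusted p = 0.0726 from limma).

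Ndufab1, the mitochondrial acyl carrier protein that is also a complex I subunit, had levels of 10.31, 10.33 and 10.33 in pilocarpine-treated mutants, against 10.45, 10.39 and 10.40 in mutant controls. They were 10.34, 10.31 and 10.32 in SE, against 10.42, 10.49 and 10.48 in heterozygous controls. All 6 mice with pilocarpine lay below all 6 controls. Ndufab1 fell by 0.14 on the log2 scale in SE (standard error 0.038, adjusted p = 0.0306 from limma), and its other probe set fell by 0.15 (adjusted p = 0.0315 from limma). In mutants the log2 fold change was -0.09 (95% confidence interval -0.17 to -0.0049, adjusted p = 0.301 from limma). The call in SE ended on leaving out any 1 SE array or heterozygous control 2 or 3 (adjusted p = 0.0569 to 0.107 from limma). It also ended in 3 of 11 other settings of the fit, with a highest adjusted p of 0.108 from limma.

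The remaining complex I subunits differed by small amounts. The median log2 fold change of the 34 was -0.07 in mutants and -0.11 in SE. In SE 33 of the 34 were below 0 (97.1%, against 61.2% of all probe sets). Ndufb7, a small accessory subunit, had levels of 9.76, 9.75 and 9.88 in pilocarpine-treated mutants, against 9.92, 10.03 and 10.01 in mutant controls. These groups did not overlap, and its log2 fold change was -0.19 (adjusted p = 0.0833 from limma). In SE Ndufb7 had -0.14 (adjusted p = 0.0944 from limma). Ndufs6, an accessory subunit at the iron-sulphur arm, had -0.19 in SE (adjusted p = 0.125 from limma), the lowest fold change of the complex I subunits in SE. Ndufv1, the core subunit that oxidises NADH, had -0.11 in mutants and -0.05 in SE. Ndufs1, an iron-sulphur core subunit, had -0.07 in mutants and -0.04 in SE. Ndufs5 varied most between mice, with levels of 9.39, 9.98 and 10.07 in pilocarpine-treated mutants, against 9.66, 9.17 and 9.84 in mutant controls. Its groups overlapped, and its log2 fold change was 0.26 in mutants (95% confidence interval -0.14 to 0.66) and 0.14 in SE (95% confidence interval -0.27 to 0.54).

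The 4 subunits of succinate dehydrogenase, complex II, were not called. Of all probe sets 0.871% were higher and 0.965% lower in mutants, with 5.08% and 6.93% in SE. Sdha, the flavin-bearing catalytic subunit, had a log2 fold change of -0.05 in mutants (95% confidence interval -0.13 to 0.043) and -0.03 in SE (95% confidence interval -0.12 to 0.058). Sdhb, the iron-sulphur subunit, had levels of 11.44, 11.39 and 11.47 in pilocarpine-treated mutants, against 11.49, 11.57 and 11.62 in mutant controls. In SE it had 11.50, 11.52 and 11.49, against 11.62, 11.60 and 11.59 in heterozygous controls. Neither pair of groups overlapped, with log2 fold changes of -0.13 in mutants (adjusted p = 0.177 from limma) and -0.10 in SE (adjusted p = 0.166 from limma). The membrane anchor Sdhc had -0.08 in mutants and -0.13 in SE (adjusted p = 0.0666 from limma for SE). For the other anchor, Sdhd, the values were 0.02 in mutants and -0.07 in SE.

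None of the 8 subunits of complex III, the cytochrome bc1 complex, was called. The shares over all probe sets were 0.871% higher and 0.965% lower in mutants, with 5.08% and 6.93% in SE. Uqcr10, a small accessory subunit, had the lowest fold changes of the complex. Its levels were 10.31, 10.17 and 10.31 in pilocarpine-treated mutants, against 10.42, 10.44 and 10.60 in mutant controls. They were 10.41, 10.28 and 10.45 in SE, against 10.56, 10.54 and 10.60 in heterozygous controls. Neither pair of groups overlapped, and the log2 fold change was -0.23 in mutants (adjusted p = 0.0924 from limma) and -0.18 in SE (adjusted p = 0.0882 from limma). Uqcrfs1, the Rieske iron-sulphur protein, had -0.07 in mutants and -0.11 in SE. The core protein Uqcrc1 had -0.10 in mutants and 0.01 in SE, and the core protein Uqcrc2 had -0.05 in mutants and -0.02 in SE. Uqcrh, the hinge protein, had -0.02 in mutants and -0.01 in SE.

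Complex IV, cytochrome c oxidase, gave 0 calls among 10 subunits. Of all probe sets 0.871% were higher and 0.965% lower in mutants, with 5.08% and 6.93% in SE. Cox5b, which lies at the matrix side, had levels of 12.27, 12.29 and 12.28 in pilocarpine-treated mutants, against 12.41, 12.42 and 12.44 in mutant controls. In SE they were 12.34, 12.28 and 12.33, against 12.44, 12.45 and 12.41 in heterozygous controls. All 6 mice with pilocarpine lay below all 6 controls, with a log2 fold change of -0.14 in mutants (adjusted p = 0.0791 from limma) and -0.12 in SE (adjusted p = 0.0647 from limma). Cox4i1, the main isoform of a regulatory subunit, had -0.06 in mutants (95% confidence interval -0.16 to 0.044) and 0.0002 in SE (95% confidence interval -0.10 to 0.10). Cox6c had 0.0028 in mutants and -0.03 in SE. Ndufa4, named for complex I and now known as a complex IV subunit, had -0.11 in both comparisons.

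Among the 17 subunits of ATP synthase, complex V, none was called. The shares over all probe sets were 0.871% higher and 0.965% lower in mutants, with 5.08% and 6.93% in SE. Atp5b, the catalytic beta subunit, had levels of 13.39, 13.40 and 13.38 in pilocarpine-treated mutants, against 13.40, 13.36 and 13.46 in mutant controls. In SE they were 13.39, 13.34 and 13.42, against 13.36, 13.40 and 13.37 in heterozygous controls. The groups overlapped in both genotypes, and the log2 fold change was -0.02 in mutants (95% confidence interval -0.11 to 0.071) and 0.0046 in SE (95% confidence interval -0.084 to 0.094). Atp5a1, the alpha subunit, had -0.0008 in mutants and -0.0020 in SE, and Atp5d, the delta subunit, had -0.01 in mutants and 0.0014 in SE. The rotor subunit c is made from 3 genes that encode the same mature protein. Atp5g2 had levels of 11.86, 11.87 and 11.94 in pilocarpine-treated mutants, against 11.997, 12.18 and 12.12 in mutant controls. In SE it had 12.08, 12.08 and 12.05, against 12.22, 12.21 and 12.22 in heterozygous controls. Neither pair overlapped, with a log2 fold change of -0.21 in mutants (adjusted p = 0.0532 from limma) and -0.15 in SE (adjusted p = 0.0792 from limma). Its 3 probe sets ranged from -0.21 to -0.19 in mutants and from -0.16 to -0.15 in SE. Atp5g1 had -0.12 in mutants and -0.10 in SE, and Atp5g3 had -0.04 in mutants and -0.13 in SE. Differences between the ATP synthase genes were not tested.

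**Figure D4:**
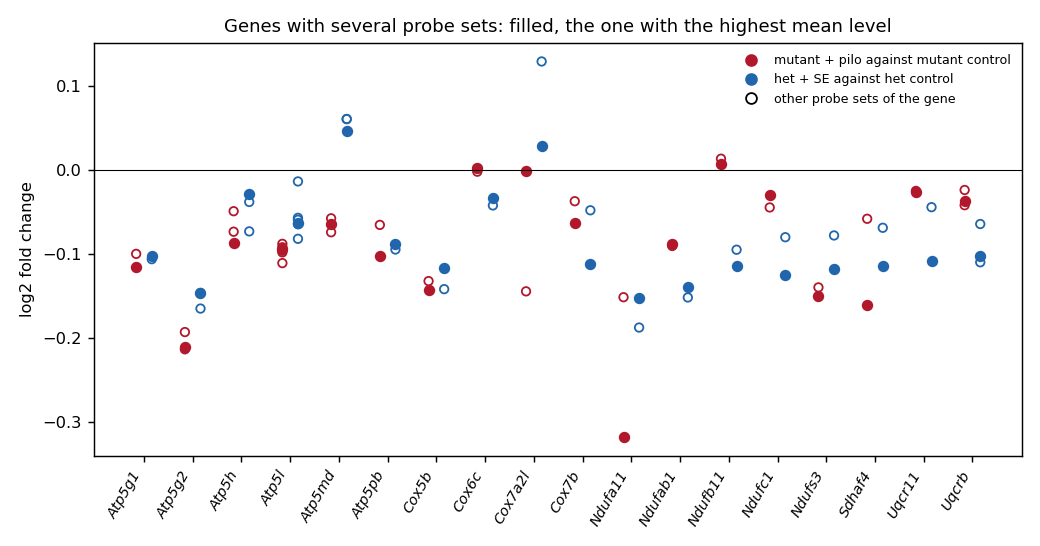
Log2 fold change (y axis) for every probe set of the 18 members with several probe sets (x axis), in pilocarpine-treated mutants (red) and in heterozygous mice with SE (blue), with the chosen probe set filled. The probe sets of Atp5g2 and Ndufab1 lie close together, whereas those of Ndufa11 in mutants span -0.32 to -0.15.

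The arrays bounded most changes of the subunits closely. In mutants 67 of 73 subunits had a 95% confidence interval within 0.3 of 0 on the log2 scale, and in SE 68 had. Centring each array on its median brought the median log2 fold change of the subunits to -0.05 in mutants and -0.06 in SE, with all probe sets at 0.01 in mutants and 0.0053 in SE.

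The 9 tissue isoforms and homologues of complex IV were not called. Of all probe sets 0.871% were higher and 0.965% lower in mutants, with 5.08% and 6.93% in SE. The muscle isoforms Cox6a2, Cox7a1 and Cox8b had mean levels of 7.77, 7.41 and 6.26, near or below the array medians of 7.66 to 7.72. The testis isoforms Cox6b2, Cox7b2 and Cox8c had mean levels of 6.14, 5.28 and 5.56, all below the medians. Cox4i2, an isoform known from lung and from hypoxia, had -0.01 in mutants (95% confidence interval -0.11 to 0.090) and -0.0001 in SE. Ndufa4l2, the hypoxia-inducible homologue of Ndufa4, had -0.09 in mutants and 0.04 in SE. Cox7a2l, which takes part in joining complexes into supercomplexes, had -0.0012 in mutants and 0.03 in SE, and its other probe set had -0.14 in mutants and 0.13 in SE.

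The deletion of Srf itself left the members without a call. Between mutant controls and heterozygous controls 0 of 93 members were higher (0.0384% of all probe sets) and 0 were lower (0.0812% of all probe sets), with 1 higher (1.08%, against 4.33% of all probe sets) and 6 lower (6.45%, against 4.4%) at an unadjusted p under 0.05. The median log2 fold change was -0.02, against -0.0071 over all probe sets. The groups did not overlap for 1 member that was higher in mutant controls (1.08%, against 6.1% of all probe sets) and for 8 that were lower (8.6%, against 7.46%). Ndufa12, an accessory subunit of complex I, was the 1 higher member, with a log2 fold change of 0.20 (95% confidence interval 0.030 to 0.37, adjusted p = 0.516 from limma). Sdhaf3 had -0.16 (95% confidence interval -0.27 to -0.044, adjusted p = 0.449 from limma).

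The response of mutants minus that of heterozygous mice had a median of 0.02 over the 93 members and of 0.02 over all probe sets. Besides Ndufaf4, 0 members were higher and 0 were lower (2.12% of all probe sets lower), with 2 higher (2.15%, against 8.65% of all probe sets) and 1 lower (1.08%, against 7.16%) at an unadjusted p under 0.05 when Ndufaf4 is counted. For the other 6 members called in a pilocarpine comparison, this difference lay between -0.17 and 0.18, with 95% confidence intervals that reached from -0.33 to 0.34. The mutants and heterozygous mice differed in genotype and also in whether SE was reached, and these cannot be told apart.

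Further genes of the respiratory chain and its supply were examined as lists. The list counts, here and below, were taken without centring arrays on their medians. Centring brought all probe sets lower in SE from 1623 to 1115, and its effect on the lists was not examined. Of 29 other assembly factors of complexes I, III, IV and V, 0 were higher and 0 lower in mutants (median log2 fold change -0.09). In SE 1 of them was higher (3.45%, against 5.08% of all probe sets) and 6 were lower (20.7%, against 6.93% of all probe sets), with a median of -0.14. Cox11, which delivers copper to complex IV, had levels of 9.24 to 9.50 in SE, against 9.77 to 9.92 in heterozygous controls, and fell by 0.45 (log2, standard error 0.069, adjusted p = 0.000908 from limma). In mutants Cox11 had 0.07, and the difference between both responses was 0.52 (adjusted p = 0.0113 from limma). Tmem70, needed to assemble ATP synthase, fell by 0.29 in SE (adjusted p = 0.00148 from limma). Uqcc3, a factor of complex III, fell by 0.31 (adjusted p = 0.00814 from limma). Ttc19, also linked to complex III, rose by 0.21 (adjusted p = 0.00986 from limma).

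Few genes that feed the chain were called, and their counts are read against 0.871% higher and 0.965% lower in mutants and 5.08% higher and 6.93% lower in SE over all probe sets. Of 15 genes of the TCA cycle, 0 were called in mutants and 1 was lower in SE (6.67%), Idh3a, a subunit of isocitrate dehydrogenase, which fell by 0.14. Of 15 genes of glycolysis and glucose uptake, 1 was higher in mutants (6.67%) and 2 were higher in SE (13.3%), with none lower. Slc2a3, the neuronal glucose transporter, rose by 0.28 on the log2 scale in mutants (adjusted p = 0.0352 from limma) and by 0.56 in SE (adjusted p = 4.03e-05 from limma). Slc2a1, the glucose transporter of the blood-brain barrier and astrocytes, rose by 0.43 in SE (adjusted p = 0.0104 from limma). Of 6 carriers of ADP, ATP and phosphate and VDAC channels, 0 were called in mutants and 1 was higher in SE (16.7%), Slc25a3, the mitochondrial phosphate carrier, which rose by 0.23. Of 14 regulators of mitochondrial biogenesis, 1 was lower in mutants (7.14%) and 2 were lower in SE (14.3%), with none higher. Tfb1m, a methyltransferase of mitochondrial ribosomal RNA, fell by 0.30 in mutants (adjusted p = 0.0432 from limma) and by 0.39 in SE (adjusted p = 0.00208 from limma). Twnk, the mitochondrial DNA helicase, fell by 0.33 in SE. Of 8 antioxidant enzymes 0 were called in mutants and 1 was lower in SE (12.5%), Prdx3, a mitochondrial peroxidase, which fell by 0.18. The genes of cytochrome c and cytochrome c1 were not called.

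Markers of cell types were compared alongside. In mutants 0 of 4 oligodendrocyte markers were called, but their mean level was 10.74 to 11.23 in pilocarpine-treated mutants, against 11.25 to 11.31 in mutant controls, and 11.08 to 11.20 in SE, against 11.11 to 11.36 in heterozygous controls. In SE 2 of 5 microglia markers were lower (40%, against 6.93% of all probe sets), Cx3cr1 and P2ry12, and the list's median log2 fold change was -0.06. The mean level of the microglia list was 8.52 to 8.58 in SE, against 8.61 to 8.69 in heterozygous controls. None of 7 neuron, 4 granule and pyramidal neuron, 5 astrocyte, 4 endothelial and 4 choroid plexus markers was called in either comparison. The neuron list had a mean level of 12.80 to 12.85 in pilocarpine-treated mutants, against 12.77 to 12.84 in mutant controls, and 12.73 to 12.76 in SE, against 12.75 to 12.79 in heterozygous controls. Of 5 muscle markers 1 was higher in pilocarpine-treated mutants (20%, against 0.871% of all probe sets). It was Myh7, with a log2 fold change of 0.25 (adjusted p = 0.037 from limma). The part of these markers in the values of the members was not tested.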

How the data were processed

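The members and gene lists were chosen with earlier results of these data known. Total RNA of hippocampus was hybridised to Affymetrix Mouse Gene ST arrays, 1 per mouse, and the authors ran the scans through Affymetrix Expression Console and deposited log2 values made by robust multiarray averaging, which includes background correction, quantile normalization and probe summary. Of 35556 probe sets, 23410 had a gene in the platform annotation (21789 with 1 gene, 1621 with several) and were tested. limma 3.58.1 in R 4.3.3 fitted a mean for each of 4 groups, with contrasts taken within each genotype, between controls, and between responses. The Benjamini-Hochberg method was applied to the p-values. These set a difference of group means against a spread between mice that was pooled over the 4 groups. limma also drew this spread toward that of all probe sets. A list is described by its counts and median, with no set test. The fit was tested on simulated data. Genes were named by a rule: called members, the largest change in a class without calls, isoform families and the 4 Sdh subunits, and members of each pathway list with the largest change. Other members, such as Ndufaf1, Ndufb7, Ndufs5 and Ndufa12, were named after their values were seen. Promoters came from RefSeq (GRCm38.p6) and were searched with Python 3.11.15 and pandas 2.3.3. Alternatives covered probe sets fitted, dim probe sets, centring, quantile normalization, arrays fitted, prior variance, array weights, a block, Xist as a covariate, the study's limits, probe sets per gene and leaving out each array. Mutants that reached SE were not analysed here.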

Additional observations from a re-analysis of the deposited data

Results flagged for a closer look

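The response of Ndufaf4, a complex I assembly factor, differed between mutants and heterozygous mice by a test of the difference itself. The log2 fold change was -0.08 in mutants and -0.44 in heterozygous mice with SE, and the difference was 0.36 (standard error 0.082, 95% confidence interval 0.18 to 0.54, adjusted p = 0.0308 from limma). Over 22 alternatives the adjusted p from limma ranged from 0.00872 to 0.0853, and the call was kept in 11. All 3 mice with SE lay below their controls, and all 3 pilocarpine-treated mutants lay below theirs by less.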

How the results depend on the processing

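None of the called members changed direction under any alternative. Of 93 members, 5 were lower in SE. This count was 3 with all probe sets fitted, 8 without dim probe sets, 1 with arrays centred on their medians, 8 after a further quantile normalization, 2 with only the compared groups fitted, 8 with a trended and robust prior variance, 11 with array weights, 3 with Xist as a covariate and 0 at the study's limits. The 3 members lower in mutants became 1 with all probe sets, 6 without dim probe sets, 0 with only the compared groups, 5 with a trended and robust prior and 0 at the study's limits. The 1 member called for the difference between responses became 0 with all probe sets. Leaving out 1 array gave 1 to 6 lower in SE, 1 to 3 lower in mutants and 0 to 1 higher for the difference. Without mutant control replicate 3, the 1 member called for the difference was a structural subunit, and Ndufaf4 had an adjusted p of 0.0526 from limma. A replicate block by animal number gave 3 lower in SE, 1 lower in mutants and 0 for the difference. Deviations of same-numbered mice from their group means correlated between -0.312 and 0.145. With 3 arrays per group these values cannot decide whether the numbers pair the mice. Counts of 0 stayed 0 under these alternatives for members higher in SE or in mutants and for the genotype. Calls were also counted over the 23 alternatives judged at an adjusted p under 0.05, which leave out the study's limits. The SE calls were kept in 23 for Ndufaf4, 17 for Sdhaf3, 15 for Ndufab1, 10 for Ndufaf3 and 10 for Sdhaf2. The mutant calls were kept in 20 for Ndufa11, 16 for Ndufaf3 and 9 for Sdhaf1. The 95% confidence interval of a member's fold change reached 0.109 (log2) to either side in the median, and smaller changes were near the limit of 3 arrays per group.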

Other observations

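The mitochondrial ribosome translates the subunits encoded in mitochondrial DNA, and part of its genes were lower in SE. Of 77 such genes, 0 were higher and 2 lower in mutants (2.6% lower, against 0.965% of all probe sets), with a median log2 fold change of -0.08. In SE 0 were higher and 22 lower (28.6% lower, against 6.93% of all probe sets), with a median of -0.13. This count was not repeated with arrays centred on their medians, which brought all probe sets lower in SE from 1623 to 1115. Mrpl50 had levels of 8.87 to 9.08 in SE, against 9.39 to 9.47 in heterozygous controls, and fell by 0.49 on the log2 scale (adjusted p = 0.000523 from limma). Mrps2 fell by 0.39 in SE (adjusted p = 0.00106 from limma), and its response in mutants minus that in heterozygous mice was 0.35 (adjusted p = 0.0468 from limma). Mrpl36 fell by 0.38 in SE (adjusted p = 0.00204 from limma). Of 55 genes of the cytosolic ribosome, 0 were called in mutants and 2 were lower in SE (3.64%, median log2 fold change -0.02). Of 40 proteasome genes, 1 was lower in mutants (2.5%) and 4 were lower in SE (10.0%, median log2 fold change -0.06). The difference between these lists was not tested.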
